A study of Panonychus citri with 4 samples.

Results

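The nymph library of the citrus red mite (Panonychus citri), a plant-feeding spider mite, was set against its larva library, as a view of the small RNAs on either side of the first moult. The comparison used 2 of the 4 libraries of the study, chosen by the labelled developmental stage, and the embryo and adult libraries served for context. Both libraries were made from whole bodies of pooled animals, given as more than 2500 larvae and 1500 nymphs. The nymph pool mixed protonymphs and deutonymphs, so a difference set by the moult out of the larva and one arising between the nymphal instars cannot be told apart. Small RNAs (18 to 30 nucleotides) were isolated on a 15% gel and sequenced. No strain, host plant or treatment is named for either pool.

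Spider mites pass from a larva through protonymph and deutonymph to the adult, each step ending in a moult, and a nymph has a pair of legs that the larva lacks. Moulting in arthropods is driven by pulses of ecdysteroid hormone, which in insects act on several microRNAs (miRNAs), among them let-7 and miR-34. A miRNA is a short RNA of about the length selected here that guides an Argonaute protein to messenger RNAs, mainly through its seed, bases 2 to 8, and lowers their output. It is cut from a hairpin, whose arms give the 5p and 3p products, and its 3′ end often varies by a few bases.

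The libraries listed 273 names in the larva and 346 in the nymph, with 1012278 and 1258698 reads. These reads made up 17.04% of the larva library total of 5941043 (95% Clopper-Pearson interval 17.01 to 17.07) and 21.2% of the nymph total of 5944776 (21.1 to 21.2). Names sharing a family number were summed as 1 group where their sequences matched exactly along an overlap of 17 bases or more, called here by its most read name. The union of both libraries held 445 names in 319 groups, and 86 groups had at least 30 reads over both. Levels are reads per 1000000 listed reads (listed RPM) or per 1000000 of the library total (library RPM), and a ratio is nymph over larva in listed RPM unless stated. Switching to the library totals multiplied every ratio by 1.24. A group was called higher or lower when its exact interval lay wholly past 2-fold. With 1 library per stage there was no replicate check, and intervals cover counting error only. In whole animals, fewer cells of a type and less RNA per cell cannot be told apart.

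Sequences of called groups are printed 5′ to 3′ as the files list them, with T for U and the seed in capitals. The first 7 belong to groups that were higher in the nymph. The last 5 are from groups that were lower, with both length forms of miR-263b since its call rests on the longer one, miR-263d-5p, and the close relative miR-92f-3p. The group miR-133 was also higher.
miR-87: gTGAGCAAagtttcaggtgtgt
miR-210-3p: tTGTGCGTgtttcaagcggctg
miR-12: tGAGTATTacatcaggtactg
miR-305c-5p: tTTGTACTtcatcaggtgctc
miR-252c-5p: cTAAGTACtagcgccgcagga
miR-1175b-3p: tGAGATTCaactcctccaact
miR-745-3p: cAGCTGCCcagtgaagggctgt
miR-315: tTTTGATTgttgctcagaaggcg
miR-263b: cTTGGCACtggaagaattca
miR-263d-5p: cTTGGCACtggaagaattcacc
miR-92-3p: tATTGCACtcgtcccggcct
miR-92f-3p: tATTGCACtagtcccggcct

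The bulk of the profile was alike in the larva and nymph. The muscle miRNA miR-1 held 50.1% of listed reads in the larva (50.05 to 50.2) and 50.9% in the nymph (50.8 to 51.0). Second was miR-184, known from the female germline of Drosophila, at 19.1% (19.03 to 19.2) and 13.4% (13.4 to 13.5). Next came miR-5735-3p with 11.3% and 12.6%. After them in the larva, miR-10-3p of the Hox cluster and miR-34-5p held 5.66% and 3.78%, and in the nymph their order was the reverse, with 4.21% and 5.51%. The 10 most read groups took 95.6% of larva reads and 93.9% of nymph reads, and miR-317 entered the nymph's 10 in place of miR-71-3p.

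The listed share of the library was 4.13 percentage points larger in the nymph, and a few groups made up most of the gain. On the library total, miR-1 went from 8.54% to 10.8%, which is 2.23 points. The groups miR-5735-3p, miR-34-5p and miR-124-3p added 0.739, 0.523 and 0.262 points. The largest loss was in miR-184, from 3.26% to 2.84%, followed by miR-10-3p, from 0.964% to 0.891%. None of these 6 groups was called on the listed scale, and of them only miR-124-3p was called on the library scale.

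Differences past 2-fold lay mostly among groups of middle and low abundance, and most of them were higher in the nymph. In listed RPM 11 of 86 groups (12.8%) were higher and 3 (3.49%) lower, 16.3% in all. Name by name, without joining, 26 of 115 (22.6%) were higher and 12 (10.4%) lower, 33% in all. In library RPM 17 (19.8%) were higher and 2 (2.33%) lower. The median ratio over the 86 groups was 1.30 in listed RPM and 1.61 in library RPM, and 66 of 86 lay above 1 in listed RPM. Under all 5 scalings compared, 9 groups were higher and 2 lower. The names fell into classes that differed in their calls: all 14 calls in listed RPM were among the 52 groups that are neither let-7 nor vertebrate-type names. The 26 vertebrate-type groups, set by a fixed list of family numbers, and the 8 let-7 groups gave 0 calls, with median ratios of 1.11 and 1.27. That list leaves out some families that vertebrates also have, so miR-133 and miR-210-3p are among the 52. Depth differed between the classes. The vertebrate-type groups held 1357 larva and 1843 nymph reads in all, the let-7 groups 2134 and 3311, and the other 52 groups 1008363 and 1252767. An interval wholly past 2-fold is harder to reach with few reads, and the called groups included miR-34-3p with 1 larva and 32 nymph reads. The largest vertebrate-type ratio, 2.61, was not called. Whether depth accounts for the 0 calls in these classes was not tested. The summed vertebrate-type level from embryo to adult was 209.5, 228.4, 310.02 and 237.4 library RPM. What these names stand for in the mite was not tested.

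**Figure D1:**
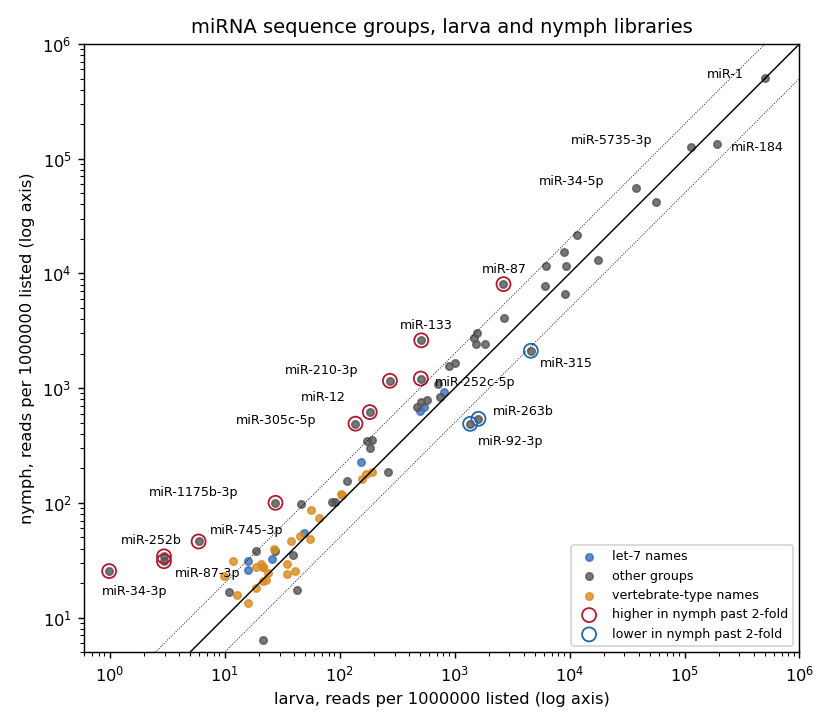
Listed RPM in the larva (horizontal, log axis) and the nymph (vertical, log axis) for the 86 groups with at least 30 reads over both libraries; the solid line marks equality and the dotted lines 2-fold. The 11 ringed groups above the line were called higher in the nymph and the 3 below it lower, and groups with no larva read stand at 3 reads.

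The muscle list was split between its members. The group miR-133, a muscle miRNA of animals from insects to mammals, had levels of 104.7, 512.7, 2611 and 1277 listed RPM from embryo to adult. Its ratio was 5.09 (4.64 to 5.597), or 6.33 in library RPM. It was lowest in the embryo and highest in the nymph, while miR-1 in the same list had a ratio of 1.01 (1.01 to 1.02). Thus miR-133 was present at 519 reads for 507589 of miR-1 in the larva, and 3286 for 640380 in the nymph. Of the 2 muscle groups 1 was called higher, beside 11 of 86 over all groups. Nearly all miR-133 reads were in its 20-nucleotide row, with 518 larva and 3269 nymph reads.

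The neuron and sense organ list had a median log2 ratio of 0.43, beside 0.38 over all groups. In it 1 of 11 groups was higher in the nymph and 1 lower, against 11 and 3 of 86 over all groups. The higher one was miR-210-3p, which responds to low oxygen in mammals and is needed for photoreceptor upkeep in Drosophila. Embryo to adult levels were 104.7, 273.6, 1159 and 942.04 listed RPM, with a ratio of 4.24 (3.72 to 4.83). This group has 1 row in each library, so no joining of variants entered its ratio. The neuronal miRNA miR-124-3p had 11848 larva and 27437 nymph reads and a ratio of 1.86 (1.82 to 1.90), called in library RPM alone at 2.31. The groups miR-153, miR-276, miR-7 and miR-137-3p had ratios of 2.12 (1.51 to 3.03), 1.59 (1.498 to 1.69), 1.54 (1.41 to 1.69) and 1.34 (1.06 to 1.70), none of them called on either scale. The last 4 are known from neurons of flies or mammals. In this list 8 of 11 ratios lay above 1. Those below 1 were 0.292 for miR-124-2-5p, 0.335 for miR-263b and 0.885 for miR-263b-3p. The lower call was miR-263b, and it rests on a single row without nymph reads.

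The group miR-87, linked to dendrite regeneration in Drosophila, was the most abundant of those called. Its embryo, larva, nymph and adult levels were 193.3, 2661, 8068 and 3672 listed RPM, and the nymph level was the highest of the 4. Its ratio was 3.03 (2.91 to 3.16), and 3.77 in library RPM. A separate group, miR-87-3p (tTGAGCAAagtttcaggtgtgt), differs from miR-87 by G1T, where positions count from the 5′ end of miR-87, so both share the seed. It had no larva row and 39 nymph reads, which made it at least 10.5-fold higher against a floor of 3 larva reads.

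Further higher calls fell on the growth-linked miR-305c-5p and on other conserved groups. The group miR-305c-5p, whose Drosophila counterpart acts in insulin signalling and gut stem cells, went from 137.3 to 490.2 listed RPM, close to the adult level of 481.3. Its ratio was 3.57 (2.97 to 4.32). The group miR-12, named for a miRNA that shares a cluster with miR-283 and miR-304 in Drosophila, went from 182.8 to 618.1, beside an adult level of 570.2, and had a ratio of 3.38 (2.88 to 3.99). The adult levels of both lay near the nymph ones per listed reads, but not per library total. In library RPM, from embryo to adult, miR-305c-5p had 10.7, 23.4, 103.8 and 35.7, and miR-12 had 8.22, 31.1, 130.9 and 42.2. The larva was thus the lowest library for both per listed reads and the embryo per library total, with the nymph highest on both scales. In the growth and metabolism list 1 of 6 groups was called, miR-305c-5p, and all 6 had ratios above 1 in listed RPM, beside 11 called higher and 66 above 1 of 86 over all groups. Its median log2 ratio was 0.93, against 0.38 over all groups.

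Other higher calls were on miR-1175b-3p, miR-745-3p and miR-252c-5p. The group miR-1175b-3p had 28 larva and 126 nymph reads and a ratio of 3.62 (2.39 to 5.66), with its highest listed level, 221.3 RPM, in the adult. Per library total the nymph was higher than the adult, which had 97 reads of 5918115. The group miR-745-3p had 6 larva and 58 nymph reads, a ratio of 7.77 (3.36 to 22.1), and embryo to adult levels of 56.4, 5.93, 46.1 and 70.7 listed RPM. The larva was the low point for miR-745-3p, also in library RPM (2.35, 1.01, 9.76 and 5.24 in the same order). The group miR-252c-5p had 514 and 1526 reads and a ratio of 2.39 (2.16 to 2.64). The calls on miR-252c-5p and miR-1175b-3p were lost under 2 scalings, median-of-ratios (1.88 and 2.85) and TMM (1.78 and 2.70).

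**Figure D2:**
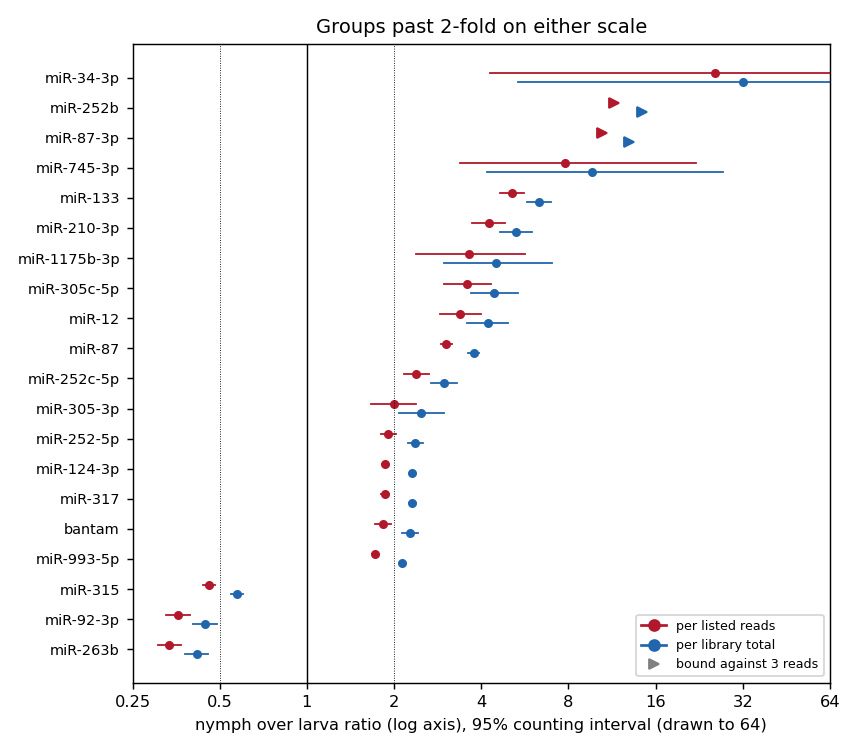
Nymph over larva ratio (log axis) with 95% counting intervals for the groups past 2-fold on either scale, per listed reads (red) and per library total (blue); triangles are bounds against 3 reads and dotted lines mark 2-fold. miR-133 and miR-210-3p lie above 3 on both scales, whereas miR-305-3p, miR-252-5p, miR-124-3p, miR-317, bantam and miR-993-5p pass 2-fold with the library totals alone.

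Lower in the nymph were miRNAs that dominated the embryo library, and 1 of the sensory miR-263 family. The group miR-315, an activator of Wingless signalling in Drosophila cells, had levels of 321422, 4602, 2117 and 802.9 listed RPM from embryo to adult. It was 2.17-fold lower in the nymph than in the larva (2.07 to 2.28), and 1.75-fold in library RPM, where the call was lost. The group miR-92-3p, of a family that maintains neuroblasts in Drosophila, had levels of 199222, 1365, 488.6 and 63.9 listed RPM in the same order. It was 2.79-fold lower in the nymph (2.54 to 3.08), or 2.25-fold in library RPM. For both groups the larva to nymph step continued a decline that ran through all 4 libraries and was much steeper before the larva.

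The relative miR-92f-3p did not follow miR-92-3p. It differs by C10A, counted from the 5′ end of miR-92-3p, outside the seed, so that both carry the seed ATTGCAC. It had 185 larva and 381 nymph reads, a ratio of 1.66 (1.39 to 1.98) that was not called, and levels of 6175, 182.8, 302.7 and 98.1 listed RPM from embryo to adult. Its share of the reads of the pair was 3.01% in the embryo (2.86 to 3.16), 11.8% in the larva (10.2 to 13.5), 38.3% in the nymph (35.2 to 41.4) and 60.6% in the adult (48.3 to 72.0). The intervals of the larva and nymph do not overlap, and this share needs no scaling between libraries. Summed over the whole seed, with names of miR-25 and miR-363 included, reads went from 1599 to 1039, a ratio of 0.523 (0.483 to 0.565) with no call. The substitution token compares listed sequences, and whether these are separate genes was not tested.

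**Figure D3:**
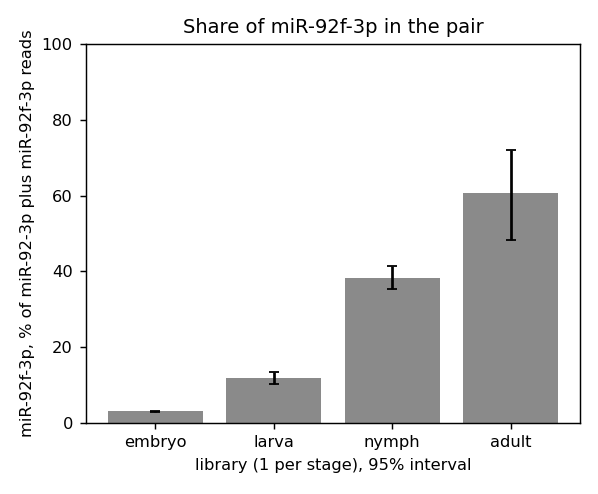
Share of miR-92f-3p in the summed reads of miR-92-3p and miR-92f-3p in each library (bars from 0, 95% Clopper-Pearson intervals). From embryo to adult the share was 3.01%, 11.8%, 38.3% and 60.6%.

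The miR-263 groups stood apart from each other. Drosophila miR-263a and miR-263b protect the precursors of sensory bristles from cell death, and in locusts miR-263 acts on a chitinase needed for moulting. The group miR-263b had embryo to adult levels of 563.9, 1612, 540.2 and 314.8 listed RPM, and was 2.98-fold lower in the nymph than in the larva (2.73 to 3.27). This difference rests on a single row: the 22-nucleotide miR-263d-5p had 1098 larva reads and no nymph row. The 20-nucleotide row miR-263b had 534 and 680 reads, a ratio of 1.02. The group miR-263-5p had a ratio of 1.27 (1.23 to 1.31) and miR-263b-3p one of 0.885 (0.563 to 1.39).

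**Figure D4:**
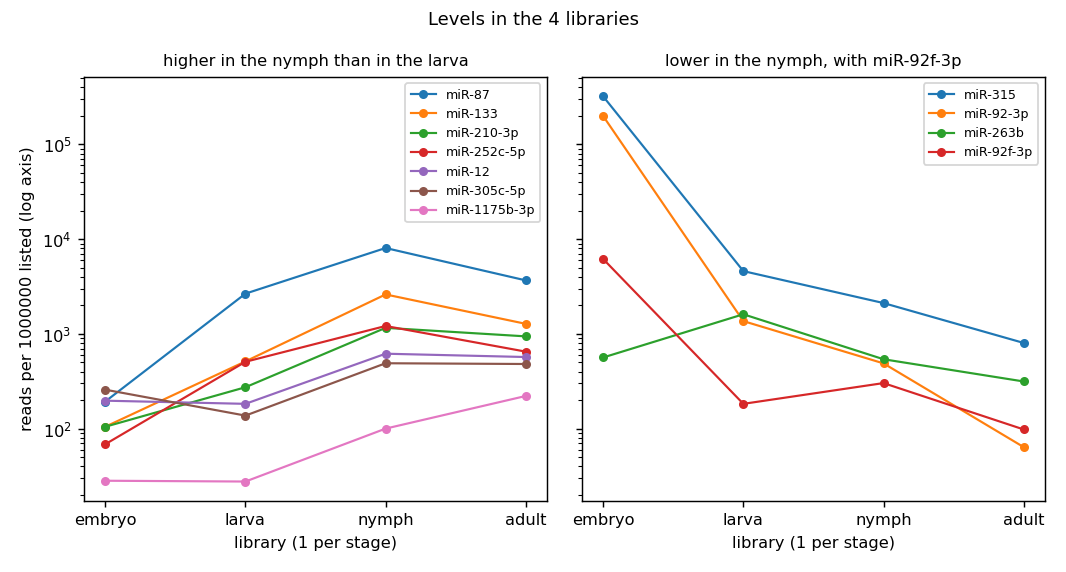
Listed RPM (log axis) in the 4 libraries, 1 per stage, for groups called higher in the nymph with at least 100 nymph reads (left) and for the groups called lower with miR-92f-3p (right). On the left every group but miR-1175b-3p is highest in the nymph, and on the right miR-315 and miR-92-3p decline through all 4 libraries.

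A list of miRNAs linked to moulting and ecdysone in insects had 22 measured groups, of which 3 were higher and 1 lower, against 11 and 3 of 86 over all groups. Its median log2 ratio was 0.44, beside 0.38 over all groups. The higher groups were miR-34-3p, miR-252b and miR-252c-5p, and the lower one was miR-263b. Of these, miR-34-3p had 1 larva and 32 nymph reads, and miR-252b had no larva row and 43 nymph reads. With 1 mismatch allowed in the joining, miR-252b became part of miR-252-5p, with a ratio of 1.93 and no call. The call on miR-252c-5p was lost under 2 scalings, and that on miR-263b rests on a single row. The more abundant miR-252-5p, with 1596 and 3785 reads, had a ratio of 1.91, called in library RPM alone at 2.37. In Drosophila, miR-34 is lowered by ecdysone and let-7 is raised by it. Here miR-34-5p had 38263 larva and 69392 nymph reads, a ratio of 1.46 (1.44 to 1.48), and 8 let-7 groups had ratios from 1.11 to 1.96, none of them called on either scale. Summed let-7 levels from embryo to adult were 383.7, 359.2, 556.96 and 373.9 library RPM, beside 209.5 to 310.02 for the vertebrate-type names, and whether these let-7 reads are of mite origin was not tested. The let-7 partners miR-100 and miR-125-5p had 1 and 2, and 3 and 12 reads in the larva and nymph, too few to measure, and no miR-14 name was listed.

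Other members of the moult list lay between these. The group miR-281-5p, whose silkworm counterpart represses an ecdysone receptor isoform, had a ratio of 1.39 (1.25 to 1.54). The growth miRNA bantam, which lowers ecdysone production in Drosophila, had 1500 and 3409 reads and a ratio of 1.83 (1.72 to 1.94), called in library RPM at 2.27. The insulin-linked miR-8-3p had 1.63 (1.51 to 1.76). The group miR-2b-3p, of a family that ends the action of a juvenile hormone factor in cockroaches, had 1.32 (1.25 to 1.40). Both arms of miR-71, which acts on a chitin synthase in locusts, were on the other side, with 0.747 (0.731 to 0.763) for miR-71a-5p and 0.720 (0.699 to 0.742) for miR-71-3p. On the library scale 5 of the 22 moult groups were higher and 1 lower, beside 17 and 2 of 86 over all groups.

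The other lists had few members, and their counts stand beside 11 higher and 3 lower of 86 over all groups. In the miR-34 cluster 1 of 3 groups was higher, in the miR-92 family 1 of 3 was lower, and among early embryo miRNAs 1 of 2, miR-315, was lower. The single measured groups of the miR-12 and miR-750 clusters were both higher. The Hox cluster (4 groups), the germline-linked list (4) and the miR-9 family (2) had 0 calls in listed RPM, and the plant-type list had 0 measured groups. Within the Hox cluster the miR-10 groups lay below 1, with 0.744 (0.735 to 0.753) for miR-10-3p and 0.702 (0.586 to 0.840) for miR-10-5p. The miR-993 groups lay above it, with 1.72 (1.68 to 1.76) for miR-993-5p and 1.52 (1.45 to 1.59) for miR-993a-3p.

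The leading listed length was the same in the larva and nymph for most groups. Of the 47 groups with at least 100 reads in each library, 6 had a different leading name, and all 6 kept the first base. In 5 of these the nymph name was shorter and in 1, miR-281-5p, it was longer. In all 6 a leading name lacked a row in the other library. The higher calls on miR-305c-5p and miR-12 are of this kind, and their names are printed with the difference at the 3′ end.
miR-305a-5p: tTTGTACTtcatcaggtgctct
miR-305c-5p: tTTGTACTtcatcaggtgctc
miR-12-5p: tGAGTATTacatcaggtactgg
miR-12: tGAGTATTacatcaggtactg
The larva listed 139 reads of miR-305a-5p and the nymph 616 of miR-305c-5p, neither having a row in the other. The larva listed 116 reads of miR-12-5p and 69 of miR-12, and the nymph 778 of miR-12 alone. Likewise the larva listed 8481 reads of the 22-nucleotide miR-124, where the nymph had none, and the 21-nucleotide miR-124-3p went from 3021 to 24209. In all, 99 larva names, with 1.15% of its reads, had no row in the nymph library, and nymph names with 0.354% of its reads had none in the larva. Whether a sequence without a row was absent or not listed cannot be told apart from the files.

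Where longer and shorter names of a group were listed in both libraries, the shorter ones tended to hold more of the nymph reads. This measure was chosen after its values were seen. Of 17 groups with the same first base and at least 100 reads in each library, the shorter names had a larger share in the nymph in 13. Intervals did not overlap for 6 of these 13, and for 1 group with a smaller share. Counting also names with a row in 1 library only, the same 17 groups again gave 13, 6 and 1, but miR-87 and miR-124-3p changed sides. For miR-1 the longest name, with 22 bases, and the 20-base miR-1b are printed.
miR-1: tGGAATGTaaagaagtatggag
miR-1b: tGGAATGTaaagaagtatgg
The names miR-1b and miR-1a-3p, the latter with 19 bases, together held 11.7% of the miR-1 group in the embryo, 11.5% in the larva (11.4 to 11.6), 15.3% in the nymph (15.2 to 15.4) and 17.3% in the adult. The direction for miR-87 depended on which names were counted. Of names with rows in both libraries, the 19-nucleotide miR-87b-3p (gTGAGCAAagtttcaggtg) held 13.4% beside the 22-nucleotide row in the larva (11.98 to 14.9), 27.9% in the nymph (27.1 to 28.8) and 30.4% in the adult. The 21-nucleotide miR-87a-3p had 588 larva reads and no nymph row, and with it the shorter names of miR-87 held 32.3% of larva and 27.9% of nymph reads, the opposite order.

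A larger nymph share, with or without names listed in 1 library only, was found for miR-1, miR-34-5p, miR-184, miR-317 and miR-7. The 20-nucleotide miR-34 (tGGCAGTGtggttagctggt) held 14.5% of its group in the larva (14.2 to 14.9) and 18.2% in the nymph (18.0 to 18.5), and 21.3% in the adult. The shorter miR-184 names held 9.36% and 11.4%, those of miR-317 2.46% and 5.39% (2.74% in the adult), and that of miR-7 1.53% and 4.28%. For miR-124-3p the direction also turned on the names counted. Among names with rows in both libraries, those of 18 and 19 nucleotides held 10.3% in the larva (9.27 to 11.4) and 5.45% in the nymph (5.17 to 5.73). Over all names of miR-124-3p, which adds the 22-nucleotide miR-124 of the larva and 1833 nymph reads of the 20-nucleotide miR-124d-3p, those under 21 nucleotides held 2.92% (2.62 to 3.24) and 11.8% (11.4 to 12.2). For bantam the shares were 13.9% and 14.2%, and for the 3 vertebrate-type groups compared, miR-122-5p, miR-140-3p and miR-199a-3p, the intervals overlapped. Over all listed reads the mean length was 21.5 nucleotides in the larva and 21.4 in the nymph, and the share of 22-nucleotide sequences was 71.6% and 63.7%. These values also move with the abundance of whole groups. The 22-nucleotide row of miR-184 had 175330 larva and 149724 nymph reads, and the 22-nucleotide miR-10-3p had 57288 and 52974. Sequences starting with T held 93.2% of larva reads (93.1 to 93.2) and 93.8% of nymph reads (93.7 to 93.8).

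**Figure D5:**
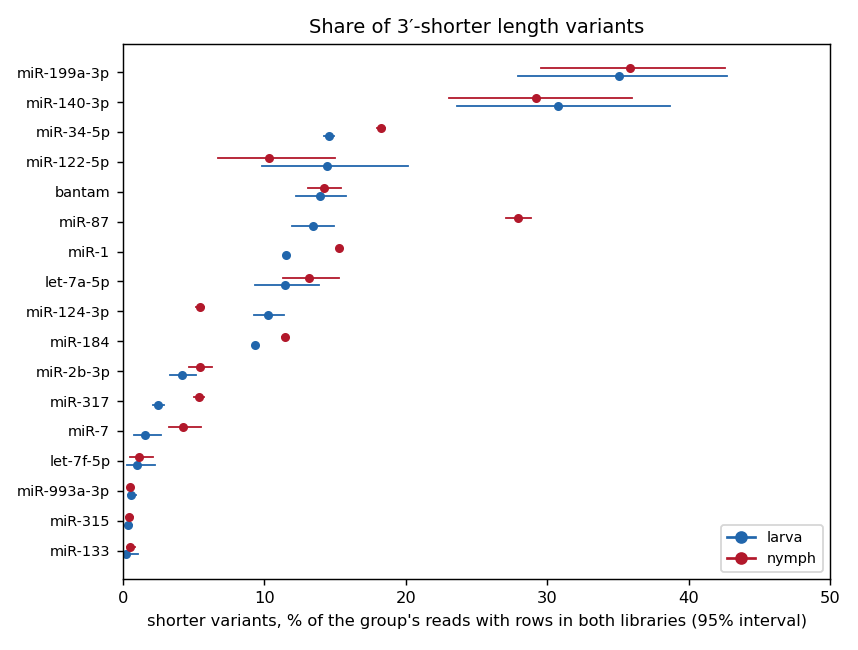
Share of the shorter names, in percent of the reads of names listed in both libraries with the same first base, in the larva (blue) and nymph (red) for 17 groups, with 95% intervals. The nymph share is larger with intervals apart for miR-1, miR-184, miR-34-5p, miR-317, miR-87 and miR-7, and smaller for miR-124-3p. With names listed in 1 library only, miR-87 and miR-124-3p reverse.

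The balance between hairpin arms was measured within each library, so no scaling enters it. Both arms had at least 30 reads over both libraries in 11 families, and the 5p share differed beyond counting error in 5. For miR-305 the more read arm changed. The 5p share was 44.1% in the larva (38.6 to 49.8) and 58.6% in the nymph (55.6 to 61.6), and 21.8% in the embryo and 54.8% in the adult. The larva 5p reads were the 139 of miR-305a-5p, and all but 1 of the nymph ones were the 616 of miR-305c-5p. Neither name had a row in the other library, so the change of arm depends on which names were listed. The partner strand, miR-305-3p (gACATCTGaagaagtacattta), had 176 larva and 436 nymph reads, a ratio of 1.99 (1.67 to 2.39) beside 3.57 for miR-305c-5p.

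For miR-34 the minor arm miR-34-3p (aACCACTGattgcactgcccat) had 1 larva read, of the longer name miR-34a-3p, and 32 nymph reads, a ratio of 25.7 (4.30 to 1048). The 5p share of miR-34 was 99.997% in the larva and 99.95% in the nymph, since miR-34-5p had 38263 and 69392 reads, and the adult had no row for the 3p arm. The minor miR-124-2-5p went the other way, from 22 to 8 reads, which is 0.185% (0.116 to 0.280) and 0.0291% (0.0126 to 0.0574) of both arms. For miR-993 the 5p share was 76.9% (76.1 to 77.6) and 78.96% (78.4 to 79.5). For miR-263b it was 97.6% and 93.9%, but 93.03% and 93.9% with the 20-nucleotide row alone. In the other 6 families, miR-10, miR-184, miR-5735, miR-7, miR-71 and miR-9, the intervals overlapped.

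Grouping by seed gave nearly the same picture as grouping by sequence. Of 74 seeds with at least 30 reads, 8 (10.8%) were higher in the nymph and 2 (2.70%) lower. The seed of miR-92-3p, and that of miR-745-3p once joined with miR-22 names (ratio 2.99, 1.91 to 4.86), lost their calls. The call on miR-252b was lost as well, and miR-87-3p was counted with miR-87, whose seed it shares. The names with TAAGTAG as seed, shared by miR-252b-5p (cTAAGTAGtagtgccgcaggt) and miR-252b (tTAAGTAGtagtgccgcaggta), had a ratio of 1.94 (1.83 to 2.06). The seed TAAGTAC of miR-252c-5p, one base away, had a ratio of 2.39 (2.16 to 2.65).

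The longer nymph list held more sequences that differ from an abundant group by a single base. Leaving out let-7 and vertebrate-type names, 20 such groups were listed in the larva and 38 in the nymph, 19 in both, with 292 and 698 reads. Over groups of every kind, 225 were listed in the larva and 290 in the nymph, 196 of them in both. Of the single-base reads, miR-92f-3p alone held 185 in the larva and 381 in the nymph. Most single-base groups were rare, with 5 in the larva and 10 in the nymph at 10 reads or more. Of the 39 groups in either library, 32 differed after base 8, among them 10 at base 10 and 6 at base 11, while 3 differed within the seed and 4 at base 1. Among those at base 1, miR-252b differs from the leading miR-252-5p group by C1T and made up 1.12% of the pair in the nymph (0.814 to 1.51). The larva listed 0 reads of miR-252b beside 1596 of the miR-252-5p group, and the interval of that share reaches up to 0.231%. Base 1 is missing from 10 of these 1596 larva reads (miR-252) and from 8 nymph reads (miR-252e-5p), which could go with either group. With an overlap of at least 19 bases the miR-252b ratio was 4.10, against a bound of 11.5 here. For miR-87-3p the nymph share was 0.383% (0.272 to 0.523), and the larva interval, at a count of 0, reaches up to 0.137%. The miR-87 group also holds 3 larva reads without base 1 (miR-87c-3p). With reads lacking base 1 left in the larger groups, miR-252b and miR-87-3p were both above the larva limit in the nymph, and their adult reads were 0 and 2.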

How the data were processed

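For each library the authors' file has 1 row per known miRNA name. The read count deposited by the authors is a whole number per name, beside the sequence. The normalized value deposited by the authors is reads per 1000000 of a library total (RPM): count over normalized value gave the same total for every name of a file. What reads that total holds, and the aligner, miRNA reference and mismatch rule, were not given in the sources used here. Depths stand in the report, and the floor of 3 reads set where a row was missing equals 2.96 (larva) and 2.38 (nymph) listed RPM.

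Read counts were summed by sequence group over names of all 4 libraries, joining each name to the most read name it overlapped. Ratios have exact conditional binomial (Clopper-Pearson) 95% intervals (scipy 1.17.1), and a call needed at least 30 reads over both libraries. Alternatives were other scalings (median-of-ratios; TMM with edgeR 4.0.16), joining rules, read minimums and folds. Code was tested on simulated counts. Arms were paired by family and by the best base pairing of the sequences. Named are groups past 2-fold on either scale, the 10 most read, measured members of the muscle, neuron and moult lists, families with both arms, and groups whose leading name changed. Some named groups are given only by range. Members, rule and the 13 lists were chosen with earlier results of these data known. Sequences of miR-124, miR-133, miR-1a-3p, let-7 and vertebrate-type names are not printed.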

Additional observations from a re-analysis of the deposited data

How the results depend on the processing

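Of the 11 higher and 3 lower groups, the count was 17 higher with the library totals, 7 with a minimum of 100 reads, 21 at 1.5-fold and 6 at 3-fold, and lower groups numbered 5 by leading name alone and 0 at 3-fold. By name, 26 were higher and 12 lower, or 14 and 2 among names with rows in both libraries. Seeds went from 8 higher and 2 lower to 15 and 1 with the library totals. By group, median-of-ratios and TMM each took the calls of miR-252c-5p and miR-1175b-3p, the library totals that of miR-315, and 1 mismatch that of miR-92-3p (0.514, joined with miR-92f-3p). Joining with 1 mismatch, or through names in between (single linkage), each left 9 higher and 2 lower. Both put miR-252b into miR-252-5p (1.93), and single linkage put miR-263b into miR-263-5p (1.075), so these calls were lost there. Direction reversed for miR-263b by leading name and by rows in both libraries (1.02), and by leading name for miR-7-3p (0.0262) and miR-716b (0.0232), because that name has no nymph row. By leading name miR-124-3p was 6.44, miR-12 was 9.07, and, against the larva floor, miR-281-5p was at least 268.6, miR-305c-5p at least 165.1 and miR-34-3p at least 8.58. By rows in both libraries miR-124-3p was 6.12 and miR-12 was 9.07.

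List counts moved as follows. With the library totals, higher groups were 2 in neuron and sense organ, 5 in moult, 1 in Hox cluster, 3 in growth and 2 in the miR-34 cluster, and lower ones 0 in early embryo. Over all 86 groups 17 were higher and 2 lower on that scale, and over all 115 names 26 and 12 in listed RPM. By name, higher members were 7 in neuron and sense organ, 1 in Hox cluster, 2 in growth, 3 in the miR-34 cluster and 1 in germline-linked, and lower ones were 3 in neuron and sense organ, 2 in moult, and 1 each in Hox cluster, growth and the miR-12 cluster. As shares of the library total, miR-1, miR-184 and miR-5735-3p held 8.54%, 3.26% and 1.92% in the larva and 10.8%, 2.84% and 2.66% in the nymph. Without miR-1 the mean length was 21.3 nucleotides in the larva and 21.2 in the nymph, with 86.3% and 87.3% starting with T. Counting each name once these were 21.5 and 21.3 nucleotides, with 59.7% and 56.4%.

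Shorter names had a larger share with intervals apart in 5 of 10 groups at 1000 reads or more (added after seeing the data), and in 6 of 17 with the shortest name alone or with all names. No paired analysis was possible because each stage has 1 library. Groups with fewer than 30 reads over both libraries, 233 of 319, were not compared.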
